A study of Arabidopsis thaliana with 24 samples.

Results

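The lasting response of Arabidopsis to INA was described by setting 3 arrays of Col-0 plants harvested 6 d after INA against 3 arrays of Col-0 plants harvested 6 d after mock treatment. The arrays were chosen by treatment and time alone, and the 6 are part of 24 arrays in the series. INA is 2,6-dichloroisonicotinic acid. All plants of the groups compared here were wild type Col-0 grown on soil with 14 h of light and 10 h of darkness. They were 2 weeks old when their aerial parts were sprayed, and the whole aerial tissue was harvested, per the labels. INA plants received 100 µM INA, DCA plants received 100 µM of 3,5-dichloroanthranilic acid, and mock plants received 0.002% DMSO in water. DCA at 6 d, INA at 48 h and mock at 48 h, with 3 arrays each, serve below to show where INA at 6 d differs. The other arrays entered only the shared filter and fit. They are Col-0 with DCA and npr1-3 plants with DCA or mock, all at 48 h. The labels call the replicates independent biological samples. The sources used here do not give how many plants made up a sample.

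INA is a functional analog of salicylic acid, the hormone that builds up in infected leaves. Salicylic acid signals act through the coactivator NPR1 and switch on genes for secreted antimicrobial proteins, receptors and the machinery that brings proteins to the cell surface. In Arabidopsis, treatment with INA is known to induce resistance that resembles systemic acquired resistance, the lasting state of alert of leaves far from a first infection. The genes most often used to follow this state, PR1, PR2 and PR5, as well as NPR1 itself, carry no name in the probe annotation used and were not analysed here.

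The arrays held linear signals scaled by the authors, with medians between 137 and 148 on the 6 arrays. Photosynthesis transcripts marked the tissue as green: LHCB4.1, an antenna protein of photosystem II, lay between 29134 and 38534 with INA and between 35003 and 39729 with mock. The root gene EXPA7 lay between 16.3 and 32 with INA and between 12.1 and 48.2 with mock, the pollen gene AT1G29140 at no more than 53.4 and the meristem gene CLV3 at no more than 10.2 on any of the 6 arrays. AGL65, a MADS-box gene of pollen and the other annotated floral or pollen marker of 10 listed, lay between 79.8 and 128 with INA and between 71.9 and 162 with mock. It passed the filter on dim signals and was not called (log2 change 0.03). EXPA7 and CLV3, the single annotated markers of the root and meristem lists, did not pass the filter, and none of 9 vascular markers carries a name in the annotation used. In bulk tissue, fewer cells of a type and less RNA per cell cannot be told apart.

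INA replicate 1 stood apart from the other INA arrays. It differed by over 2-fold from replicates 2 and 3 in 16.4% and 19.3% of the tested probe sets, whereas replicates 2 and 3 differed so in 2.42%, and the 3 pairs of mock arrays in 1.41% to 3.2%. DCA replicate 1 stood apart in the same way, at 15.6% and 13.8%. MCCA, a subunit gene of the leucine-degrading enzyme methylcrotonyl-CoA carboxylase that is known to be induced in darkness, read 1417, 543 and 493 in INA replicates 1, 2 and 3 and 558, 535 and 538 in mock. COR47, a dehydrin of the cold response, read 10888, 3035 and 2933 with INA and 3933, 3919 and 5589 with mock. The jasmonate-type defensin gene PDF1.2 read 7945, 312 and 207 with INA and 357, 350.3 and 253 with mock. Among these INA and mock arrays, the 3 genes were high in INA replicate 1 alone, and they were not called. Between DCA and mock of the same time, MCCA changed by 0.72 on the log2 scale, COR47 by 0.69 and PDF1.2 by 0.07. None of these changes with DCA was called. Without INA replicate 1, limma called 228 probe sets between INA and mock, 166 of them shared with the calls from all arrays.

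At 6 d after spraying, INA plants still carried raised levels of defence transcripts and a smaller set of lowered ones. A probe set was called where limma's p, adjusted by Benjamini and Hochberg over the 13648 probe sets tested, was under 0.05. By this rule 250 probe sets were called, 1.83% of those tested: 212 were higher with INA (1.55%) and 38 were lower (0.278%). The rises were large, with a median log2 change of 1.67 (3.19-fold), and 74 were at least 4-fold. The falls were smaller, with a median of -0.92 (1.89-fold), and 4 of them reached 4-fold. The raised transcripts had a median signal of 667 with INA and 188 with mock, where the median of all non-control probe sets was 132. The lowered ones were bright, with a median of 1081 with INA and 2204 with mock.

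**Figure D1:**
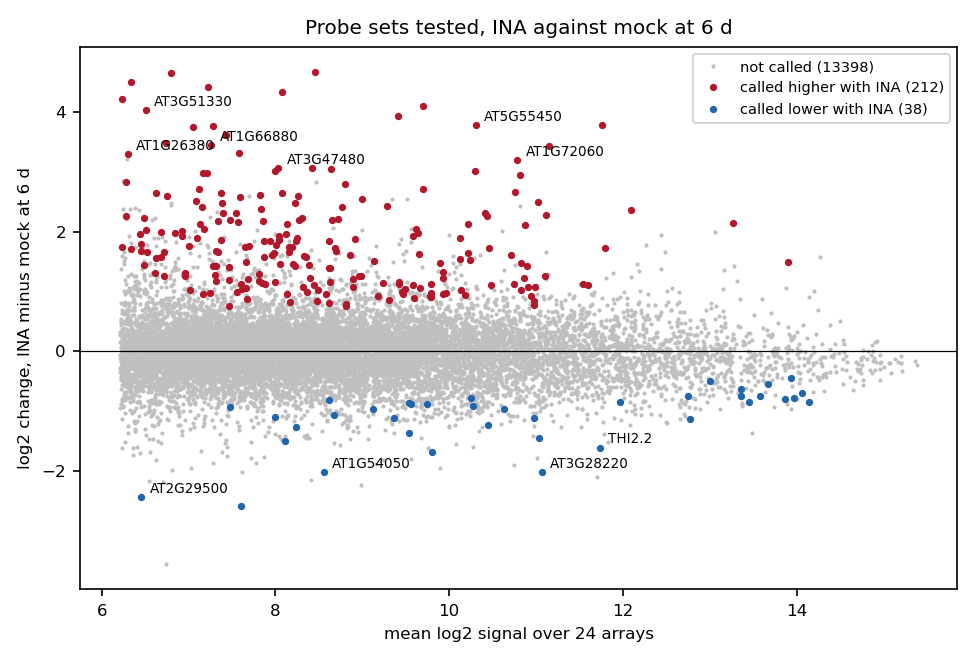
Log2 change between INA and mock at 6 d (vertical axis) against the mean log2 signal over 24 arrays (horizontal axis) for the 13648 probe sets tested. The 212 called higher (red) reach further from 0 than the 38 called lower (blue), which lie towards brighter signals, and uncalled probe sets are grey.

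The median change over all tested probe sets was 0, so a list's median can be read against 0. INA and mock arrays did not overlap for 248 of the 250 called. Over all probe sets tested, the arrays did not overlap with INA higher in 12.8% and with INA lower in 13.2%. A call rests on few arrays: 82 of the 212 raised and 8 of the 38 lowered probe sets kept their call whichever of the 6 arrays was left out, and 18 and 4 kept it in none of these 6 fits. The annotation gave a single gene to 125 of the 250, which stand for 124 genes, 106 raised and 18 lowered. The 122 with no entry are unnamed here.

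Genes of secreted protein families stood among the largest rises. AT3G51330 encodes a member of the aspartyl protease family. Its signals were 97.4, 365 and 423 with INA and 24.2, 10.9 and 13 with mock. Every INA array lay above every mock array, and all mock arrays were below the filter signal of 74.2, so the 16.3-fold change, the largest among named genes that were tested, has a dim denominator (log2 change 4.03 ± 0.54, SE; adjusted p 0.000198). AT5G55450, of the lipid-transfer protein family of small secreted proteins, was bright: 3849.9, 7325 and 7030.1 with INA and 373, 458 and 448 with mock. Its log2 change of 3.78 ± 0.38 had the lowest adjusted p among all probe sets tested (3.73e-05).

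Chitinases cut chitin, a polymer of fungal cell walls. CHI (AT2G43570), a chitinase family gene, read 456, 2193 and 3088 with INA and 179, 209 and 142 with mock. The groups did not overlap, but replicate 1 was well under the other INA arrays, and the log2 change of 3.06 ± 0.67 (adjusted p 0.0161) was called in only 1 of the 6 fits that left out an array (highest adjusted p 0.0959). The other called chitinase genes held up better when an array was left out. AT1G02360 read 208, 495 and 444 with INA and 114, 135 and 61.7 with mock (1.86 ± 0.31, adjusted p 0.0018), and AT4G01700 read 369.7, 472 and 691 with INA and 136, 172 and 183 with mock (1.61 ± 0.26, adjusted p 0.00142). Both were called in all 6 fits, but a fit to the 6 INA and mock arrays alone called neither CHI nor AT1G02360. Of 8 tested chitinase and beta-1,3-glucanase genes, these 3 were called higher and 0 lower, where 1.55% of all tested probe sets were called higher. The list names 31 loci, 17 of them annotated. All 8 had a positive change, and the median was 1.58, or 0.88 without INA replicate 1. The beta-glucanase gene AT4G16260 changed by 1.85 and was not called (adjusted p 0.323).

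Genes for an oxidoreductase, a protease inhibitor and a lectin followed. AT1G26380, also known as FOX1, belongs to the berberine bridge enzymes, flavin-dependent oxidoreductases, and acts in the making of indole-derived defence compounds. It read 192, 172 and 189 with INA and 37.8, 7.11 and 24.9 with mock, a log2 change of 3.29 ± 0.63 (adjusted p 0.006) that was lost in 1 of the 6 fits (0.0553). It was the single called member among 7 tested genes of that family, whose median was 0.38. Its relative AT1G26420 was too dim for the filter, at 106, 83 and 73.5 with INA and 6.9, 1.77 and 1.76 with mock. Its mock signals were close to the floor of 1 put under the signals, so no fold change is given.

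AT1G72060, which encodes an inhibitor of serine-type proteases, read 7237, 3795 and 2799.6 with INA and 534, 551 and 339 with mock. Replicate 1 was the highest INA array, and the 9.17-fold change (adjusted p 0.0328) was called in none of the 6 fits (highest adjusted p 0.137). AT4G39830, of the cupredoxin family of copper proteins, read 360.0, 689.8 and 488 with INA and 65.6, 50.2 and 74.3 with mock, and was called in all 6 (2.98 ± 0.44, adjusted p 0.000626). The curculin-like lectin gene AT5G18470 read 1143, 909.5 and 1115 with INA and 136, 128 and 197 with mock (2.8 ± 0.65, adjusted p 0.026). Though its arrays lay far apart, it was called in none of the 6 fits (highest adjusted p 0.12). AT5G55450 was the single called member of 19 tested lipid-transfer genes, whose median was -0.25, and AT3G51330 that of 16 aspartyl protease genes, with a median of -0.05. Over all tested probe sets 1.55% were called higher. These 4 lists of secreted protein families were written after such genes had been seen among the most changed.

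**Figure D2:**
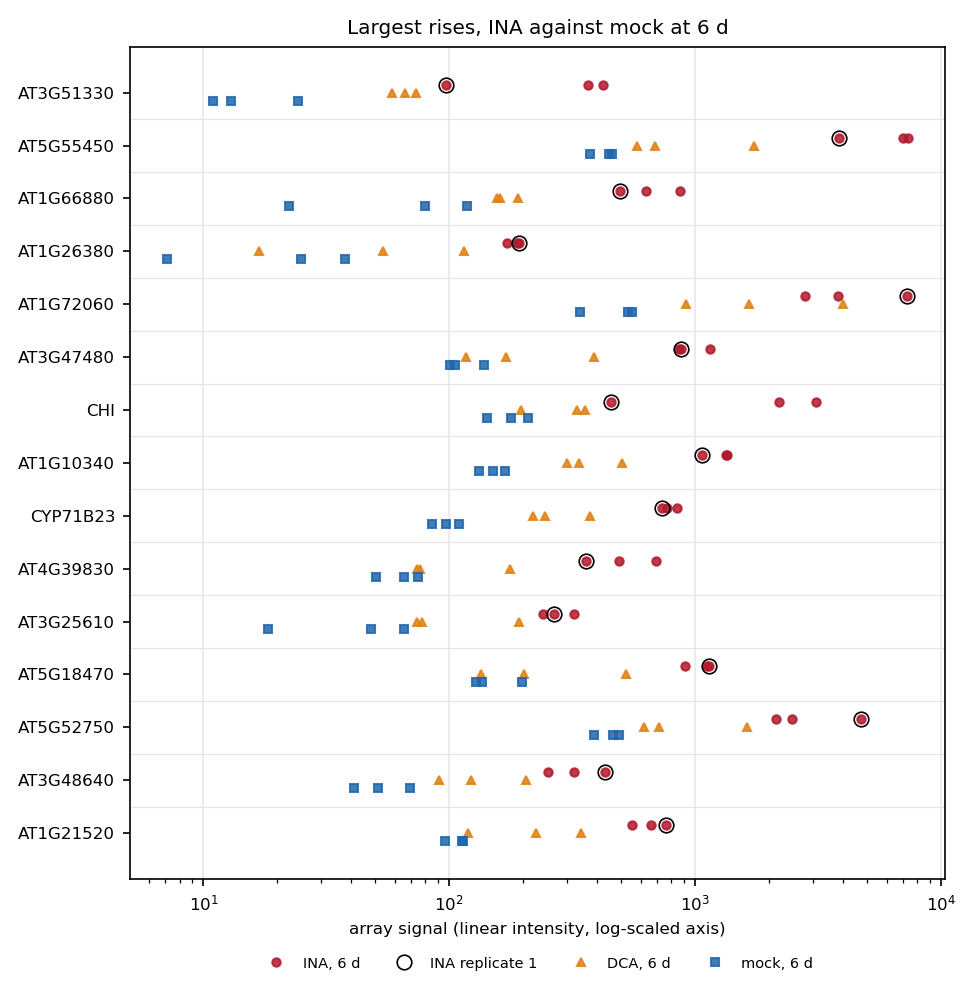
Array signals (horizontal, log-scaled axis, linear intensity units) of the 15 named genes with the largest called rises, with INA (red circles, replicate 1 ringed) above DCA (orange triangles) and mock (blue squares), 3 arrays each at 6 d. INA arrays lie to the right of all mock arrays in every row, and for AT3G51330, AT5G55450 and CHI replicate 1 is the lowest INA array.

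Receptor-like kinases carry a sensing domain outside the cell and a kinase inside, and many detect microbial or damage signals. AT1G66880, a protein kinase gene, read 495, 628 and 866 with INA and 22.3, 79.3 and 118 with mock, a log2 change of 3.44 ± 0.51 (adjusted p 0.000669). AT1G35710, a leucine-rich repeat kinase gene closely related to MIK2, read 442, 1031 and 1158 with INA and 157, 142 and 257 with mock (2.17 ± 0.35, adjusted p 0.00142). AT5G38210 read 277, 284 and 249 with INA and 56.5, 79.1 and 70.6 with mock (1.99 ± 0.34, adjusted p 0.00217). All 3 were called in each of the 6 fits, as was AT2G19130, a lectin-domain kinase gene, at 1.45 ± 0.23 (adjusted p 0.00142).

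MIK2 (AT4G08850), a receptor kinase of immune peptides, was raised less: 1479, 1437 and 1744 with INA and 759, 786 and 714 with mock (1.04 ± 0.22, adjusted p 0.0132). It was called in 2 of the 6 fits. Of 16 tested receptor-like kinases 7 were called higher and 0 lower, where 1.55% of all tested probe sets were called higher. The list names 156 loci, 66 of them annotated, and the filter on dim signals left these 16. That filter uses the mean over all arrays and can admit a member dim in mock through its high INA arrays. The median was 0.92, 14 changes were positive, and without INA replicate 1 the count was also 7. AT2G19130, AT1G35710, AT4G08850, AT5G39020 and AT5G38210 were put on this list after being seen among the called genes, so the count describes the list as chosen.

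Calcium signals follow the perception of microbes, and EF-hand proteins bind the calcium. AT3G47480, an EF-hand gene, read 874, 1144 and 857 with INA and 139, 100.2 and 105 with mock, a log2 change of 3.06 ± 0.55 (adjusted p 0.00391). AT5G39670 read 475, 541 and 491 with INA and 136, 166 and 119.7 with mock (1.85 ± 0.34, adjusted p 0.00463). In both genes the INA arrays lay close together and far above mock, and both were called in all 6 fits. CML41, a calmodulin-like gene, read 412, 172 and 157 with INA and 86.7, 96.9 and 23.7 with mock (1.93 ± 0.46, adjusted p 0.0321) and was called in 3 of the 6.

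These were the 3 called of 15 tested EF-hand genes, from 28 listed and 22 annotated, where 1.55% of all tested probe sets were called higher. Of the 15, 13 had a positive change, and the median was 0.77. The list was written after results of these data had been seen. CaBP22 (AT2G41090), a calmodulin-like gene among the brightest of the series, was not called at 6 d. It read 11898, 16378 and 20978 with INA and 7768, 8788 and 11340.4 with mock (0.8 ± 0.3, adjusted p 0.197). The arrays did not overlap, but the lowest INA array was near the highest mock array.

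The few tested genes of the salicylic acid pathway itself were less clear at 6 d. Of 25 listed genes of salicylic acid response 3 were tested, and of 9 listed for its synthesis and the EDS1 pathway 2. All of these had a positive change, and 2 in each list had an unadjusted p under 0.05. EDS1B (AT3G48080), a copy of the lipase-like immune regulator EDS1, read 156, 233 and 357 with INA and 50.2, 49.7 and 77.7 with mock, a log2 change of 2.02 ± 0.38 (adjusted p 0.00568) called in all 6 fits. EDS1 has near-identical copies in Col-0, and which of them this probe set measures was not tested. Its partner SAG101 read 307, 287 and 241 with INA and 136, 162 and 148 with mock. The arrays did not overlap, and the change of 0.9 ± 0.25 was not called (adjusted p 0.0718).

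GRX480, a glutaredoxin gene induced by salicylic acid through NPR1, read 2955, 909 and 897 with INA and 353, 319 and 433 with mock (1.88 ± 0.66, adjusted p 0.177). Replicate 1 was over 3 times the other INA arrays. SARD4 (AT5G52810), whose product reduces a precursor to pipecolic acid, a mobile immune signal, went the other way in that array: 151, 749 and 621 with INA and 314, 201 and 332 with mock. It was not called (0.58 ± 0.42, adjusted p 0.539), but without INA replicate 1 its change was 1.31 (adjusted p 0.0325). GRX480 changed by 1.31 without INA replicate 1 and was not called (adjusted p 0.598). Without replicate 1 in all groups, a fit chosen after seeing the data, both passed, GRX480 at 1.28 (adjusted p 0.0458) and SARD4 at 1.4 (adjusted p 0.0284).

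Among other raised genes were enzymes, membrane proteins and a ubiquitin ligase. The ankyrin-repeat gene AT1G10340 read 1068, 1343 and 1328 with INA and 132, 151 and 168 with mock (3.05 ± 0.36, adjusted p 8.04e-05). CYP71B23, a cytochrome P450 gene, read 736, 843 and 771 with INA and 85, 109.7 and 97.1 with mock (3.02 ± 0.4, adjusted p 0.000174). RING1, a membrane-bound ubiquitin ligase gene with a role in cell death triggered by pathogens, read 2305, 6451 and 6284 with INA and 1216, 1097 and 844 with mock (2.12 ± 0.4, adjusted p 0.00534). All were called in each of the 6 fits.

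AT3G25610, which encodes a P-type ATPase of the kind that moves phospholipids across membranes, read 266, 240.2 and 322 with INA and 48, 18.4 and 65.5 with mock (2.82 ± 0.61, adjusted p 0.0145). It was called in 4 of the 6 fits, with adjusted p-values of up to 0.123. AT5G52750, a gene of a heavy-metal-associated domain protein, read 4714, 2479 and 2139 with INA and 389, 491 and 461 with mock (2.72 ± 0.45, adjusted p 0.0018). AT3G48640 and AT1G21520 completed the 15 largest named rises, at 6.22-fold and 6.07-fold.

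Wider gene families held single calls or a pair, where 1.55% of all tested probe sets were called higher. Of 11 tested cytochrome P450 genes 2 were called higher, CYP71B23 and CYP71B24 (1.77, adjusted p 0.0107), and the median was 0.32. Of 25 UDP-glycosyltransferase genes UGT87A2 was called, at 482, 1344 and 1347 with INA and 295, 254 and 250.1 with mock (1.85 ± 0.38, adjusted p 0.00968), against a median of 0.07. Of 25 genes of entry into the secretory pathway the SEC61 beta gene AT3G60540, which encodes a part of the channel into the endoplasmic reticulum, was called.

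AT3G60540 read 1464, 1007 and 903 with INA and 376, 291 and 248 with mock (1.87 ± 0.4, adjusted p 0.0132). Without INA replicate 1 it was not called, and in all it was called in 3 of the 6 fits. The list's median was 0.22, and 0 of 21 vesicle coat genes were called (median 0.06).

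NLR proteins are immune receptors inside the cell. None of 36 tested loci of these families was called at 6 d by limma, and the median was 0.13. The list names 187 loci, 113 of them annotated, so most were not tested. Of the 36, 8 had an unadjusted p under 0.05, as had 14.1% of all tested probe sets. The TIR-domain locus AT1G57630 had the largest change, 3.47, with an adjusted p of 0.106. Of 6 tested WRKY transcription factor genes none was called, with a median of 0.34, and 3 had an unadjusted p under 0.05. Only 7 loci were found by a WRKY name in the annotation, so the count does not speak for the family. WRKY53 changed by 1.56 (adjusted p 0.231) and WRKY6 by 0.72 (0.265). Of 8 auxin-responsive genes none was called, though their median was 0.71.

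**Figure D3:**
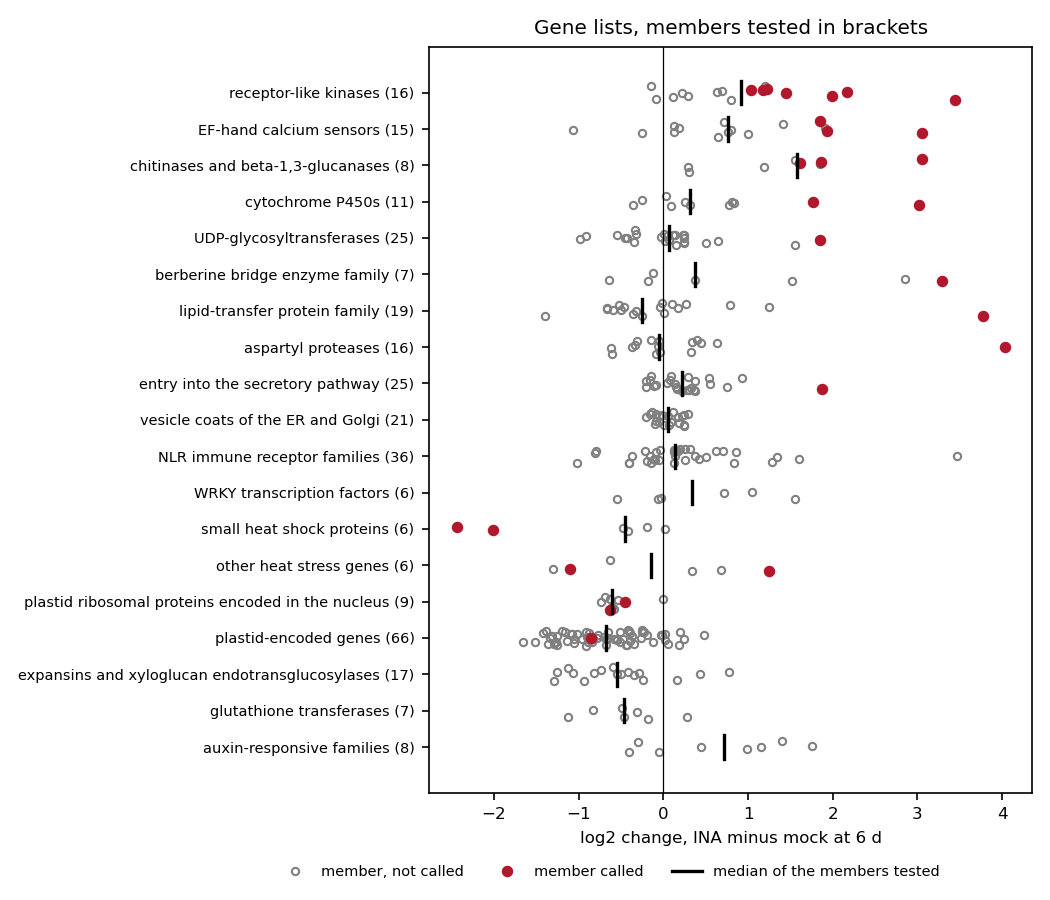
Log2 change between INA and mock at 6 d (horizontal axis) of each tested member of 19 gene lists (rows, number tested in brackets). Filled red circles are called members, open circles the others and black bars the list medians. The called receptor-like kinase, EF-hand and chitinase genes lie right of 0, and the called small heat shock and plastid genes lie left of it.

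The genes that INA lowered at 6 d included heat stress genes. Small heat shock proteins hold unfolding proteins in solution. AT2G29500, one of them, read 114, 57.7 and 38.8 with INA and 367, 441 and 249.8 with mock. It fell 5.41-fold (log2 change -2.44 ± 0.47, adjusted p 0.00623), with no overlap of the arrays. AT1G54050, another, read 211, 204 and 228 with INA and 852, 882 and 852 with mock (-2.01 ± 0.49, adjusted p 0.036).

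Although the arrays of AT1G54050 were tight at 6 d, it was called in none of the 6 fits that left out an array (highest adjusted p 0.129). In a fit to these 6 arrays alone its adjusted p was 0.00134. Fes1A, a gene for an exchange factor of the heat shock protein HSP70, read 228, 271 and 242 with INA and 546, 585 and 457 with mock (-1.1 ± 0.22, adjusted p 0.00894). Of 6 tested small heat shock genes 2 were called lower and 0 higher, with a median of -0.45. Over all tested probe sets 0.278% were called lower. Without INA replicate 1 only AT2G29500 was called among these genes. Their list was written after results of these data had been seen.

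Heat stress genes as a group did not move one way. Of 6 other heat stress genes Fes1A was lower and AT4G16660, an HSP70 family gene, was higher (1.25 ± 0.32, adjusted p 0.0497), with a median of -0.14. AT4G16660 was called in 1 of the 6 fits. Mock levels of AT2G29500 and Fes1A were themselves higher at 6 d than at 48 h. AT2G29500 read 40.6, 93.4 and 41.9 in mock at 48 h, and its mock levels at 6 d were called higher, as were those of Fes1A (adjusted p 0.0171 each). Over all tested probe sets, 0.183% were called higher and 0.0293% lower in mock at 6 d than in mock at 48 h.

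AT3G28220, a gene of the TRAF-like family, fell in each fit that left out an array. It read 841, 1520.2 and 1470.1 with INA and 5437, 5300.2 and 4371 with mock, a 4.06-fold fall (-2.02 ± 0.3, adjusted p 0.000827) called in all 6 fits. THI2.2, a thionin gene, encodes a small antimicrobial protein. It read 1513, 2825 and 2069.8 with INA and 6798, 6730.2 and 5481 with mock (-1.61 ± 0.34, adjusted p 0.0128), and was called in 3 of the 6 fits. AT3G60290, an oxygenase gene of the 2-oxoglutarate type, read 97.2, 213 and 179 with INA and 429, 483 and 402 with mock (-1.5 ± 0.29, adjusted p 0.00651).

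AT3G62820, of the pectin methylesterase inhibitor family that acts on the cell wall, read 469, 515 and 546 with INA and 1154, 1130.0 and 1016 with mock (-1.11 ± 0.2, adjusted p 0.004). It was called in all 6 fits, as was AT3G60290. The kinase gene AT2G18890 (-1.27) and the dehydrogenase family gene AT2G29290 (-1.24) were called in 2 and 3 of the 6. In a fit to the 6 arrays alone AT3G60290, AT2G18890, AT2G29290 and AT4G19830 were not called (adjusted p 0.0557, 0.0792, 0.0714 and 0.151). The same fit did not call CHI, AT1G02360, CYP71B24, UGT87A2, CML41, AT4G16660, AT1G64510, AT1G29070 and ndhI, with adjusted p-values between 0.0581 and 0.184.

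**Figure D4:**
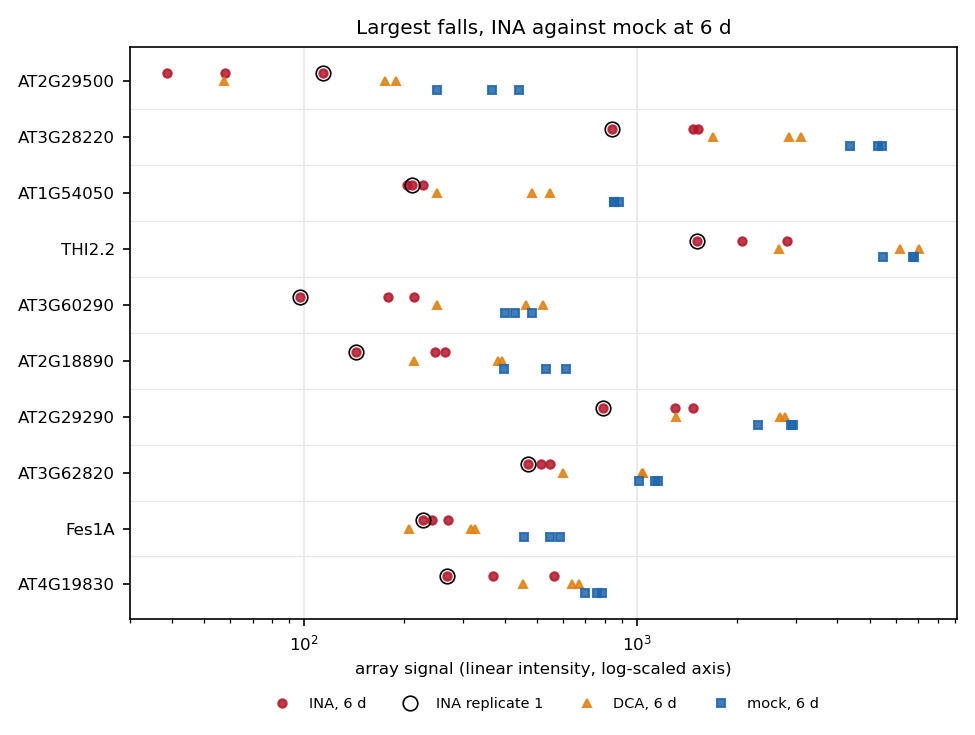
Array signals (horizontal, log-scaled axis, linear intensity units) of the 10 named genes with the largest called falls, with INA (red circles, replicate 1 ringed) above DCA (orange triangles) and mock (blue squares), 3 arrays each at 6 d. INA arrays lie left of all mock arrays in every row, and many DCA arrays lie between them.

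Several of the lowered genes serve the chloroplast, and their changes were small. Of 9 tested nuclear genes for plastid ribosomal proteins 2 were called lower, where 0.278% of all tested probe sets were. That list, too, was written after results of these data had been seen. AT1G64510 read 6322, 8751 and 8650.5 with INA and 12008, 11703 and 12664 with mock (-0.63 ± 0.16, adjusted p 0.0382). AT1G29070 read 13807, 12114 and 13119 with INA and 17564, 17333 and 18345 with mock (-0.45 ± 0.11, adjusted p 0.0431). In both the mock arrays lay close together and above all INA arrays.

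The list's median was -0.61, 8 of the 9 changes were negative, and without INA replicate 1 a single member was called. AT1G64510 and AT1G29070 were each called in 1 of the 6 fits. The plastid-encoded gene ndhI, for a subunit of the NDH complex of the thylakoid, read 10664, 14515 and 12481 with INA and 21060.3, 25183 and 21308 with mock (-0.85 ± 0.18, adjusted p 0.0145). It was the single called gene of 66 that the plastid encodes, where 0.278% of all tested probe sets were called lower. Of the 66, 59 had a negative change, with a median of -0.68. Without INA replicate 1 none of them was called (median -0.56).

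Other lowered chloroplast genes were AT4G19830, for an FKBP-type protein of the thylakoid lumen (-0.97, adjusted p 0.0409), AT3G11630, for a peroxiredoxin (-0.69, 0.0401), and NOL, for a chlorophyll b reductase (-0.86, 0.0418). Each was called in 1 of the 6 fits. The photosynthesis genes LHCB4.1 and PSAE-1 changed by -0.2 and -0.18 and were not called. The 17 tested expansin and xyloglucan endotransglucosylase genes, which loosen cell walls in growth, had a median of -0.55 with 14 negative changes and 0 called. Of these 17, 3 had an unadjusted p under 0.05, where 14.1% of all tested probe sets had. The 7 glutathione transferase genes had a median of -0.46 with 0 called. COR15A, a cold-response gene of the chloroplast, read 1135, 1389 and 1263 with INA and 3386, 3736 and 6422 with mock, and missed the threshold (-1.78 ± 0.47, adjusted p 0.0543). It passed after quantile normalization (0.0461) and in a fit to the 6 arrays alone (0.0225). Without the filter (0.0719) and in each of the 6 fits that left out an array (0.0991 to 0.208) it was not called.

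How the response at 6 d relates to that at 48 h was asked with the response to INA at each time, each against mock of its own time, which share no arrays. Of the 212 probe sets raised at 6 d, 148 were also called higher at 48 h, where 2.37% of all tested were. That is 69.8% of the 212 and 45.7% of the 324 raised at 48 h. The other 64 all had a positive change at 48 h, with a median of 0.83 at 48 h and 1.64 at 6 d. Conversely 176 of the 324 were not called at 6 d. Their medians were 1.32 at 48 h and 0.69 at 6 d, and 172 kept a positive sign. For the lowered probe sets 5 of 38 were called lower at both times, which is 13.2% of the 38 at either time, and 0.278% of all tested were called lower at 48 h.

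These counts at 48 h depend on whether the replicate numbers are used as pairs and on which arrays are fitted. Same-numbered INA and mock arrays at 48 h deviated together (correlations of 0.76, 0.78 and 0.29). With the replicate number as a block in a fit to these 6 arrays, 1195 probe sets were called higher at 48 h (8.76%) and 890 lower (6.52%). By that fit 196 of the 212 raised at 6 d were called higher at 48 h (92.5%), and 23 of the 38 lowered were called lower (60.5%). With the block in the fit to all arrays these overlaps were 159 and 11. In a fit to the same 6 arrays without the block they fell to 91 (42.9%) and 1 (2.63%).

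The difference between the responses at 6 d and 48 h was tested in the same fit. Limma called none of the 13648 probe sets. The lowest adjusted p was 0.155, and before adjustment 346 were under 0.05. This test is coarse: the median 95% interval reached 0.83 to either side on the log2 scale, a factor of 1.78. Genes called at 6 d and not at 48 h are therefore not shown to respond late.

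Most of the named rises were called at both times. AT5G55450 read 4905, 6260.1 and 6299.9 with INA at 48 h, against 1091, 456 and 567 with mock, a change of 3.14, and its change was 3.78 at 6 d. AT1G10340 changed by 3.14 at 48 h and 3.05 at 6 d, CYP71B23 by 2.63 and 3.02, and AT1G66880 by 3.64 and 3.44. AT1G26380 (1.55 and 3.29), AT1G21520 (1.49 and 2.6) and CML41 (0.46 and 1.93) were called at 6 d and not at 48 h in the fit without pairs, with unadjusted p-values for the difference of 0.0645, 0.149 and 0.0355. With the arrays of 48 h paired, AT1G26380 and AT1G21520 were called there too (adjusted p 0.00147 and 0.000902), and CML41 was not (0.203). SARD4 (2.01 and 0.58), CaBP22 (1.83 and 0.8) and the ankyrin-repeat gene AT4G11000 (2.88 and 1.55) had smaller changes at 6 d, with unadjusted p-values of 0.0254, 0.0232 and 0.00248, and an adjusted p of 1 each.

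For CaBP22 the mock level differed more with time than the INA level. INA arrays read 8013, 14953 and 14929.8 at 48 h and 11898, 16378 and 20978 at 6 d, and mock arrays read 3804, 3890.2 and 2713 at 48 h and 7768, 8788 and 11340.4 at 6 d. Some genes had a single high mock array at 48 h. AT1G72060 read 4352, 225 and 1287 with mock at 48 h, against 9002, 1398 and 6138 with INA, and its 48 h change of 1.98 was not called (adjusted p 0.256). INA lay above mock in each of the 3 numbered pairs, and with the pairs as a block the change was called (adjusted p 0.000152).

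Among the lowered genes the heat shock gene AT2G29500 had the lowest p for a difference with time among the genes named here. It changed by 1.06 at 48 h and -2.44 at 6 d, a difference of -3.5 (unadjusted p 3.4e-05, adjusted p 0.155), and its rise at 48 h was called with the arrays paired (adjusted p 0.036). Fes1A (0.28 and -1.1) and AT3G28220 (-0.15 and -2.02) had unadjusted p-values of 0.000264 and 0.000301, with an adjusted p of 0.587 each. THI2.2 was called lower at both times, with changes of -1.72 at 48 h and -1.61 at 6 d.

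**Figure D5:**
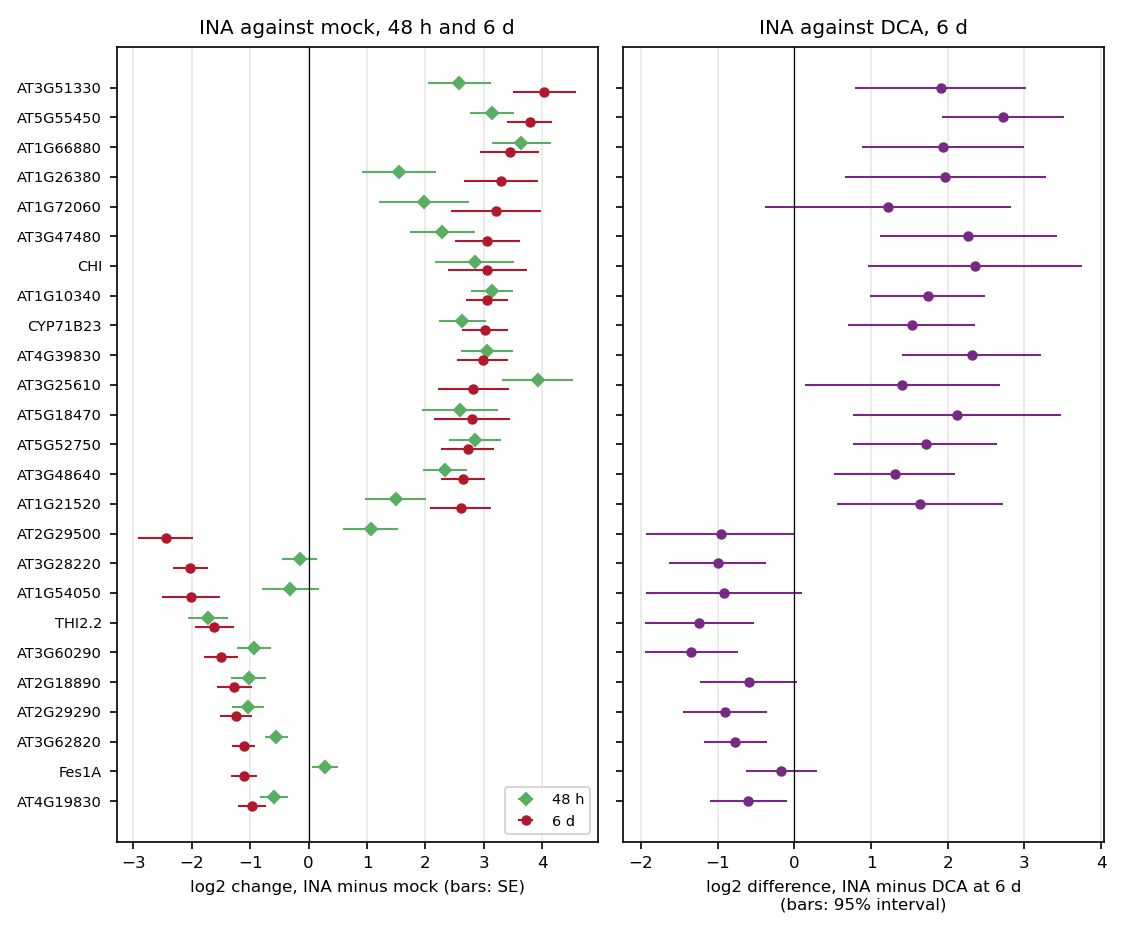
Left, log2 change between INA and mock at 48 h (green diamonds) and 6 d (red circles), with standard errors, for the 15 largest rises and 10 largest falls at 6 d. Right, log2 difference between INA and DCA at 6 d with its 95% interval. The rises have changes above 0 at both times, and AT2G29500 lies on either side of 0. The intervals against DCA are not adjusted for the number of genes, and the rises were chosen for high INA arrays, so their place right of 0 is a description. Among the 15, AT3G51330, AT1G66880 and AT1G26380 are some of those not called against DCA (adjusted p 0.213, 0.161 and 0.34).

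DCA and INA are both dichlorinated aromatic acids: INA has a pyridine ring, and DCA a benzene ring with an amino group. They were compared at the same dose and time, as 1 pair. At 6 d limma called 29 probe sets between INA and DCA, 0.212% of those tested, with 28 higher with INA (0.205%) and 1 lower (0.00733%). Same-numbered INA and DCA arrays deviated together (correlations of 0.75, 0.57 and 0.46). With the replicate number as a block the count was 42 in the fit to all arrays. It was 436 in a fit to the 6 INA and DCA arrays, 291 higher and 145 lower, and that smaller fit called all 29. Without the block the fit to those 6 arrays called none. Single arrays moved the count too: it was 110 without INA replicate 1, 47 without DCA replicate 1, and between 4 and 9 without any other of these arrays.

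The genes with 1 annotation entry among the 28 were all genes that INA had raised over mock. RING1 read 2305, 6451 and 6284 with INA and 995, 1211 and 1117 with DCA, a difference of 2.04 (95% interval 1.21 to 2.87, adjusted p 0.0305). AT1G13750, a purple acid phosphatase gene, read 327, 526 and 743 with INA and 128, 164 and 206 with DCA (1.63, 1.04 to 2.22, adjusted p 0.012). AT5G55450 read 3849.9, 7325 and 7030.1 with INA and 1742, 582 and 689 with DCA (2.72, 1.93 to 3.51, adjusted p 0.00202). In these genes no INA array overlapped a DCA array, and DCA replicate 1 of AT5G55450 was the highest of its group.

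UGT87A2 (1.81, adjusted p 0.0494), AT1G35710 (1.86, 0.0242), AT4G39830 (2.31, 0.0264), AT1G10340 (1.74, 0.0498) and AT1G74440 (0.77, 0.0498) were the others. All 8 passed with the block in the fit to the 6 arrays (adjusted p 0.000447 to 0.0228), a fit chosen after seeing the data. In the planned fit to the same arrays without a block all 8 lost their call. For the 212 probe sets that INA raised over mock, the INA arrays chose the set and so favour INA. Their change with DCA against mock had a median of 0.53, and 27 were called higher with INA than with DCA. DCA against mock at 6 d, which shares the mock arrays, gave 0 calls, a lowest adjusted p of 0.701, and 444 probe sets under 0.05 before adjustment.

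Where INA and DCA were not called apart, the 95% intervals bound the size of a difference. AT1G72060 read 7237, 3795 and 2799.6 with INA and 4008, 914 and 1650.1 with DCA, so that the groups overlapped, and its difference of 1.22 had an interval of -0.38 to 2.82. For Fes1A, at 228, 271 and 242 with INA and 207, 326 and 317 with DCA, the difference was -0.17 with an interval of -0.63 to 0.29. The small heat shock gene AT2G29500 differed by -0.96 (-1.94 to 0.01). CaBP22 differed by 0.69 (0.08 to 1.31, adjusted p 0.742), and with the block in the fit to the 6 arrays it was called (adjusted p 0.013), as was GRX480 (1.14, 0.0171).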

How the data were processed

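Each sample of aerial tissue was hybridised to its own ATH1 array from Affymetrix. The deposited values are linear signal intensities from GCOS, the Affymetrix software the authors used, as the submitters' processing notes name it without a version. The authors' intensities share a trimmed mean of 500.1 on all arrays, with 2% left out at either end. No detection calls were used and nothing was scaled again. All columns were mapped to a sample by title.

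A floor of 1 was put under the signals before log2. Leaving out 64 controls gave 22746 probe sets, and the 13648 whose mean log2 signal reached the 40th percentile, 74.2 as a signal, were tested. A gene dim in mock could pass through arrays on which it was high, so the list members tested may favour raised genes. All 24 arrays entered one means model of 8 groups, fitted by lmFit and eBayes with a trend in intensity (limma 3.58.1, R 4.3.3). Its residual degrees of freedom were 16, to which the prior added 4.44 in the median. Fitting all groups pools their spread. The filter and the spread thus also rest on the arrays of npr1-3 plants with DCA or mock at 48 h. Tests were two-sided, and all adjusted p-values are limma's with Benjamini and Hochberg's adjustment. The code of the fit was tested on simulated arrays drawn independently. That test cannot speak for replicates that deviate together, as some do here. Plots came from matplotlib 3.10.9 under Python 3.11.15. With 3 arrays a group, the reach of the 95% interval to either side of a change was 0.59 in the median on the log2 scale, or 1.5-fold. No pair of arrays in a group held the same values.

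Probe sets were named only through the supplied platform annotation (1 gene for 13513, several for 503, none for 8730), with 13508 matched to RefSeq records of TAIR10.1 for symbols. No coordinates are printed, since the sources used here name no build for the annotation. Roles of genes are background knowledge. Promoter motifs could not be counted because no promoter sequences were used here.

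Named are the 15 largest rises and 10 largest falls called in each comparison, with 1 gene in the annotation, no overlap between the arrays and a group mean above the median signal of 132. To these come up to 4 called members per gene list, or up to 2 of the brightest where none was called, and CaBP22, GRX480, SARD4 and SAG101. Single genes outside this rule (among them MIK2, AT5G39020, PDF1.2, AT1G26420, AT4G11000, AT3G11630, NOL, AT4G16260, AT1G57630, WRKY53 and WRKY6) were chosen after their values were seen. Of several probe sets for 1 gene, the lists take the brightest. The comparisons, members and lists were chosen with earlier results of these data known, and 13 of the lists were written after annotation and results had been seen. Same-numbered INA and mock arrays at 6 d did not all deviate together (correlations 0.02, 0.14 and 0.34), so these numbers were not taken as pairs. INA and DCA arrays of 6 d did, as did INA and mock arrays of 48 h (0.76, 0.78 and 0.29). Alternatives changed the normalization, the filter, the floor, the arrays fitted, the trend and the block, and left out arrays.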

Additional observations from a re-analysis of the deposited data

How the results depend on the processing

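The count of 250 between INA and mock was 271 after quantile normalization, 217 without the filter, 172 with the filter at the 60th percentile, 294 with signals under 32 set to 32, 250 without the trend and with robust variances, and 197 in a fit to the 6 arrays alone, 131 of them shared. With the replicate number as a block it was 633 (411 higher and 222 lower), though the numbers do not pair these arrays, and SAG101 and CaBP22 then passed (adjusted p 0.0419 and 0.0441). Without replicate 1 in all groups, an alternative chosen after seeing the data, it was 290, 178 of them shared. Leaving out 1 array gave 120 (mock replicate 2) to 228 (INA replicate 1), with 127 and 182 without mock replicates 1 and 3 and 160 and 161 without INA replicates 2 and 3. The change in time gave 0 calls under all alternatives except the block (1, lower) and the fit without replicate 1 in all groups (1, lower).

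The count of 362 between INA and mock at 48 h was 481 with the replicate block, 2085 with the replicate block in the 6 arrays of 48 h and 167 in those 6 arrays without it, all added after seeing the data.

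The count of 29 between INA and DCA was 18 with the filter at the 60th percentile, 56 with signals under 32 set to 32, 0 in the planned fit to these 6 arrays without a block, 130 without replicate 1 in all groups, and 436 with the replicate block in those 6 arrays, also chosen after seeing the data. Leaving out 1 array gave 4 (INA replicate 3) to 110 (INA replicate 1), with 6 without INA replicate 2 and 47, 9 and 6 without DCA replicates 1, 2 and 3. Quantile normalization gave 32, no filter 31, the block in the fit to all arrays 42 and the fit without the trend 25. Of the values of named genes between INA and mock under all alternatives, 929 kept their direction and side of the threshold, 107 lost the call, 10 gained it and 0 reversed. The causes of these changes were not tested beyond the arrays left out. Dim signals limit the fold changes of genes whose mock level is under 74.2, which 33 of the raised probe sets have.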

Other observations

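Some dim genes were outside the tests. SAG29, a sugar transporter gene known from senescing leaves, read 6.13, 4.25 and 6.35 with INA and 221, 199 and 119 with mock, and did not pass the filter. All 3 INA arrays were near the bottom of the signal range, so no fold change is given. In a fit without the filter its adjusted p was 0.0609. The anthocyanin gene UF3GT lay between 31 and 100.0 with INA and between 124 and 142 with mock, without overlap, and failed the filter. DFR, another anthocyanin gene, read 86.3, 130.5 and 179 with INA and 258, 339 and 199 with mock, and was not called (-1.04, adjusted p 0.365).

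INA replicate 1 was the lowest INA array in 108 of the 212 raised probe sets and the highest in 62. It was also the lowest in 29 of the 38 lowered ones. MSRB9, a methionine sulfoxide reductase gene, read 2111, 816 and 759.7 with INA and 227, 215 and 172 with mock (2.43, adjusted p 0.0313). The peroxidase gene AT2G37130 read 2573, 449.6 and 632 with INA and 223, 219 and 215 with mock (2.04, adjusted p 0.0392). In both the high array was replicate 1, the other INA arrays also lay above all mock arrays, and the call held in 1 of 6 fits that left out an array. PEX4, a gene often used as a reference for transcript levels, read 3680.0, 1467 and 1292 with INA, 3612, 1412 and 1551 with DCA and 1330.4, 1428 and 1161 with mock, so that replicate 1 of both treatments was high. The part of this replicate difference in the genes named was not tested.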
